A study of Mus musculus with 15 samples.

Results

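The epidermis and the tongue of the same newborn mice were compared in animals labelled as lacking the HAT/DESC protease genes, which are the Tmprss11 genes labelled a, b, c, d, e, f and g. These genes lie side by side and encode serine proteases held in the cell membrane. The comparison used 8 of the 15 RNA sequencing libraries of the series, namely 4 epidermis libraries (epidermis_KO_1 to epidermis_KO_4) and 4 tongue libraries (tongue_KO_1 to tongue_KO_4). Members were chosen by tissue and genotype labels and paired by the animal number in the sample descriptions. Animal A328 gave the libraries numbered 1, A343 those numbered 2, A386 those numbered 3 and A387 those numbered 4. All 4 animals were labelled Tmprss11a,b,c,d,e,f,g-/- at postnatal day 1, and are called knockouts after that label. The labels name no promoter, Cre or treatment, nor the sex or litter of the animals. The other 7 libraries came from wild-type mice of the same age, and their tissue difference is given beside that of the knockouts as a reference. Epidermis had been lifted off the dermis after warming in EDTA, whereas no separation of the tongue is described, so that it came with its muscle, connective tissue and vessels. In such bulk samples, fewer cells of a type and less RNA per cell cannot be told apart.

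The epidermis and the surface of the tongue are both stratified squamous epithelia. Basal cells divide on a basement membrane, move upwards, switch keratins and end as flattened cells with a crosslinked protein envelope. In skin that outer layer is sealed by ceramide-rich lipids and becomes the water barrier, while the upper surface of the rodent tongue carries filiform papillae with hard keratins and the remaining oral lining is softer and wetter. Type II transmembrane serine proteases, kallikreins and their inhibitors act in these outer layers on cell shedding, filaggrin processing and channel activation.

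Promoters of a few genes on which the comparison turns are shown first, so that their letters can be read beside the values that follow. Each run is the 250 bases before the gene's first RefSeq start in GRCm38.p6, written 5′ to 3′ on the gene's own strand. Capitals mark the pattern TGANTCA, where N is any base. It takes in the AP-1 binding sequence, TGAGTCA or TGACTCA, and also TGAATCA and TGATTCA. It is marked in the targeted proteases Tmprss11f and Tmprss11d, which differed between tissues in opposite directions. It is also marked in 3 genes of the S100-fused family that divided between the tissues. Of these marked stretches only that of Tmprss11f reads TGAGTCA, and the others read TGATTCA or TGAATCA. In the acetylcholine receptor subunit genes Chrna1 and Chrng, capitals mark CAGCTG, an E-box of the kind that myogenic factors bind. Tmprss11d also holds CAGCTG and Chrna1 also holds TGANTCA, both left in lower case.
Tmprss11f (chr5:86632425-86632674, minus strand): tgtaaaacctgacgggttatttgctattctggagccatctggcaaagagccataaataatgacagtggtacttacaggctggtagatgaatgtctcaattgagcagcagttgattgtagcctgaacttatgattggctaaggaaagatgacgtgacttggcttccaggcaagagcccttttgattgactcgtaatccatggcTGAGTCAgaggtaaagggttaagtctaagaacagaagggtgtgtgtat
Tmprss11d (chr5:86373388-86373637, minus strand): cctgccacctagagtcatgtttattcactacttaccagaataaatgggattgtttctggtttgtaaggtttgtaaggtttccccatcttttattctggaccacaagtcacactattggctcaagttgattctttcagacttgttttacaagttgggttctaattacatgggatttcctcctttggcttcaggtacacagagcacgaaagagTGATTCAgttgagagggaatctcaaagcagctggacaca
Flg2 (chr3:93197023-93197272, plus strand): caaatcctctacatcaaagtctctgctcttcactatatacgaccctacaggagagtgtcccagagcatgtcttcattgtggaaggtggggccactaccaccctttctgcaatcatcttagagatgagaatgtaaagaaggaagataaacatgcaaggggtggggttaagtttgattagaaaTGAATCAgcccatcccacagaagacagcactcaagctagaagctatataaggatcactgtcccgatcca
Rptn (chr3:93393449-93393698, plus strand): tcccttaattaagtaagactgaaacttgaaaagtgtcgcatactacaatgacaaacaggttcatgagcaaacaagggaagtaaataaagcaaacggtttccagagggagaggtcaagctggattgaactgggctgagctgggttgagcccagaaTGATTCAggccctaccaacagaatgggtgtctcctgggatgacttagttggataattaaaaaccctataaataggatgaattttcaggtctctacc
Crnn (chr3:93144539-93144788, plus strand): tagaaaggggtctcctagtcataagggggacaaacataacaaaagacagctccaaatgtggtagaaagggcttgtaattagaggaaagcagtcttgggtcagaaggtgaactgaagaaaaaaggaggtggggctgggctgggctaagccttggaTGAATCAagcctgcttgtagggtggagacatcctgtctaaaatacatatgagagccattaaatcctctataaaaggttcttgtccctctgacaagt
Chrna1 (chr2:73580339-73580588, minus strand): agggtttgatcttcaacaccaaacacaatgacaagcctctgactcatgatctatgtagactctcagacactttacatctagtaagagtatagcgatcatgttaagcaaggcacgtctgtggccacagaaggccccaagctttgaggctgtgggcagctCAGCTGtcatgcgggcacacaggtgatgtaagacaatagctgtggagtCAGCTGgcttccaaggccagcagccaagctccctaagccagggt
Chrng (chr1:87205561-87205810, plus strand): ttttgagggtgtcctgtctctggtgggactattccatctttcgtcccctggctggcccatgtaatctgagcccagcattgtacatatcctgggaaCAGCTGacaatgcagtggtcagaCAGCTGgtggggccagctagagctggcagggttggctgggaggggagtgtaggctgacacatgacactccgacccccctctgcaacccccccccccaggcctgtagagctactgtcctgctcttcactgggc

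Both motifs were searched on both strands in the same window of 27025 genes, and no match of either motif overlapped one of the other in the 7 promoters shown. TGANTCA occurred in 6.87% of all promoters and in 4.68% of the 11164 whose genes were tested here. It occurred in 8.45% of the 1337 promoters of genes called more than 2-fold higher in epidermis and in 5.5% of the 2090 promoters of genes called more than 2-fold higher in tongue. Among the S100-fused genes it was found in 5 of 7 promoters (71.4%), and among the small proline-rich genes in 9 of 14 (64.3%), many of which are close copies of one another. It was found in none of the promoters of 20 late cornified envelope genes, 7 interfollicular keratins, 10 kallikreins and 17 acylceramide and lipoxygenase genes. The match lay 48 bases before the start in Tmprss11f and 39 bases before it in Tmprss11d. Thus the pattern, though not the same letters, stood in promoters of genes that differed in opposite directions. It read TGAGTCA in Tmprss11f, higher in epidermis, and TGATTCA in Tmprss11d, higher in tongue. CAGCTG occurred in 12.8% of all promoters, in 12.9% of those of genes higher in epidermis, in 16.6% of those of genes higher in tongue and in 9 of 21 promoters of the sarcomere list (42.9%). Chrna1 held it at 92 and 44 bases and Chrng at 155 and 132 bases before the start. A match is a description of letters and is not a measured binding site.

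The 8 libraries held between 10685429 and 17819195 counted reads, and the 2 mitochondrial ribosomal RNAs took 20.8% to 22.8% of them in epidermis and 36.6% to 38.1% in tongue. Markers matched the labelled tissues. The 5 keratinocyte markers (Krt5, Krt14, Krt1, Krt10, Trp63) summed to between 30463 and 50144 CPM, the normalised read count relative to library size, in epidermis and 554 to 802 in tongue. The oral keratins Krt4 and Krt13 summed to 19 to 85.4 and 5966 to 7537 CPM, in the same order. No counted marker of the 12 cell types examined was at 0 in every library of either tissue.

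A few libraries held messages of genes that mark other tissues. The tongue of A328 had 323 CPM of the lung surfactant gene Sftpc, against 27, 5.75 and 4.44 CPM in the tongues of A343, A386 and A387. A list of 12 lung and airway genes, chosen after these values were seen, summed to 794 CPM in that library, 76.3 in the tongue of A343, and at most 23.5 in the other tongues. The tongue of A328 also held both the X-inactivation RNA Xist (736 CPM) and the Y-linked Ddx3y (18.8 CPM), whereas its epidermis held 2726 and 0.486 CPM. The tongue of A386 had 4.74 CPM of Ddx3y beside 1641 of Xist. That of A343 had 31 CPM of Xist beside 183.5 of Ddx3y, and its epidermis had 3.77 and 109.9 CPM. In epidermis, 12 spermatid genes, likewise chosen after their values were seen, summed to 282 CPM in A328 and to 6.55, 14.5 and 19.1 CPM in A343, A386 and A387. In the 4 tongues that sum was at most 0.303 CPM. Such messages were not confined to the knockouts. Wild-type libraries, scaled on their own, averaged 65.7 CPM of Sftpc in tongue. They averaged 47.2 CPM of the spermatid gene Akap4 in epidermis, where A328 had 34.4 CPM. The source of these messages was not tested, and the counts of list members that moved by 1.5 times or more without the pair of A328 stand beside the lists concerned.

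**Figure D1:**
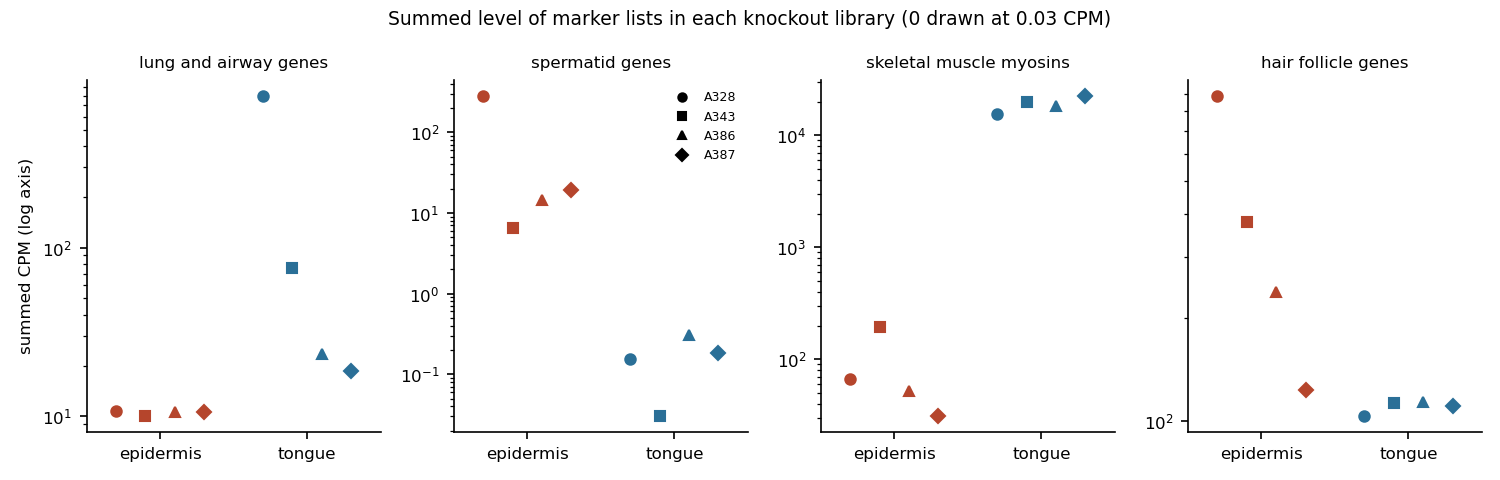
Summed CPM (log axis, 0 drawn at 0.03) of 4 marker lists in each of the 8 knockout libraries, red for epidermis and blue for tongue, with 1 symbol per animal. The lung and airway sum of the A328 tongue and the spermatid sum of the A328 epidermis stand above those of the other animals, and the hair follicle sum spans 123 to 886 CPM in epidermis.

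The 2 tissues differed in most of the genes measured. Of 16398 genes tested in a paired model, 5148 (31.4%) were higher in epidermis and 5005 (30.5%) were higher in tongue at an adjusted p under 0.05. A difference of more than 2-fold was called for 2049 genes (12.5%) in the direction of epidermis and 3051 (18.6%) in that of tongue. The 4 epidermis values lay wholly above the 4 tongue values for 4831 genes (29.5%) and wholly below them for 4799 (29.3%). The first principal component of the 8 libraries held 88.4% of the variance and separated the tissues. Differences below are log2 of epidermis over tongue, so that positive values mean higher in epidermis, and levels are CPM with the SD over 4 animals. The median difference of all genes was 0.06, and scaling by library totals alone moved it up by 0.23. Left out in turn, each pair left between 8417 and 10144 calls, the lowest without A387, and no shared call changed sign.

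**Figure D2:**
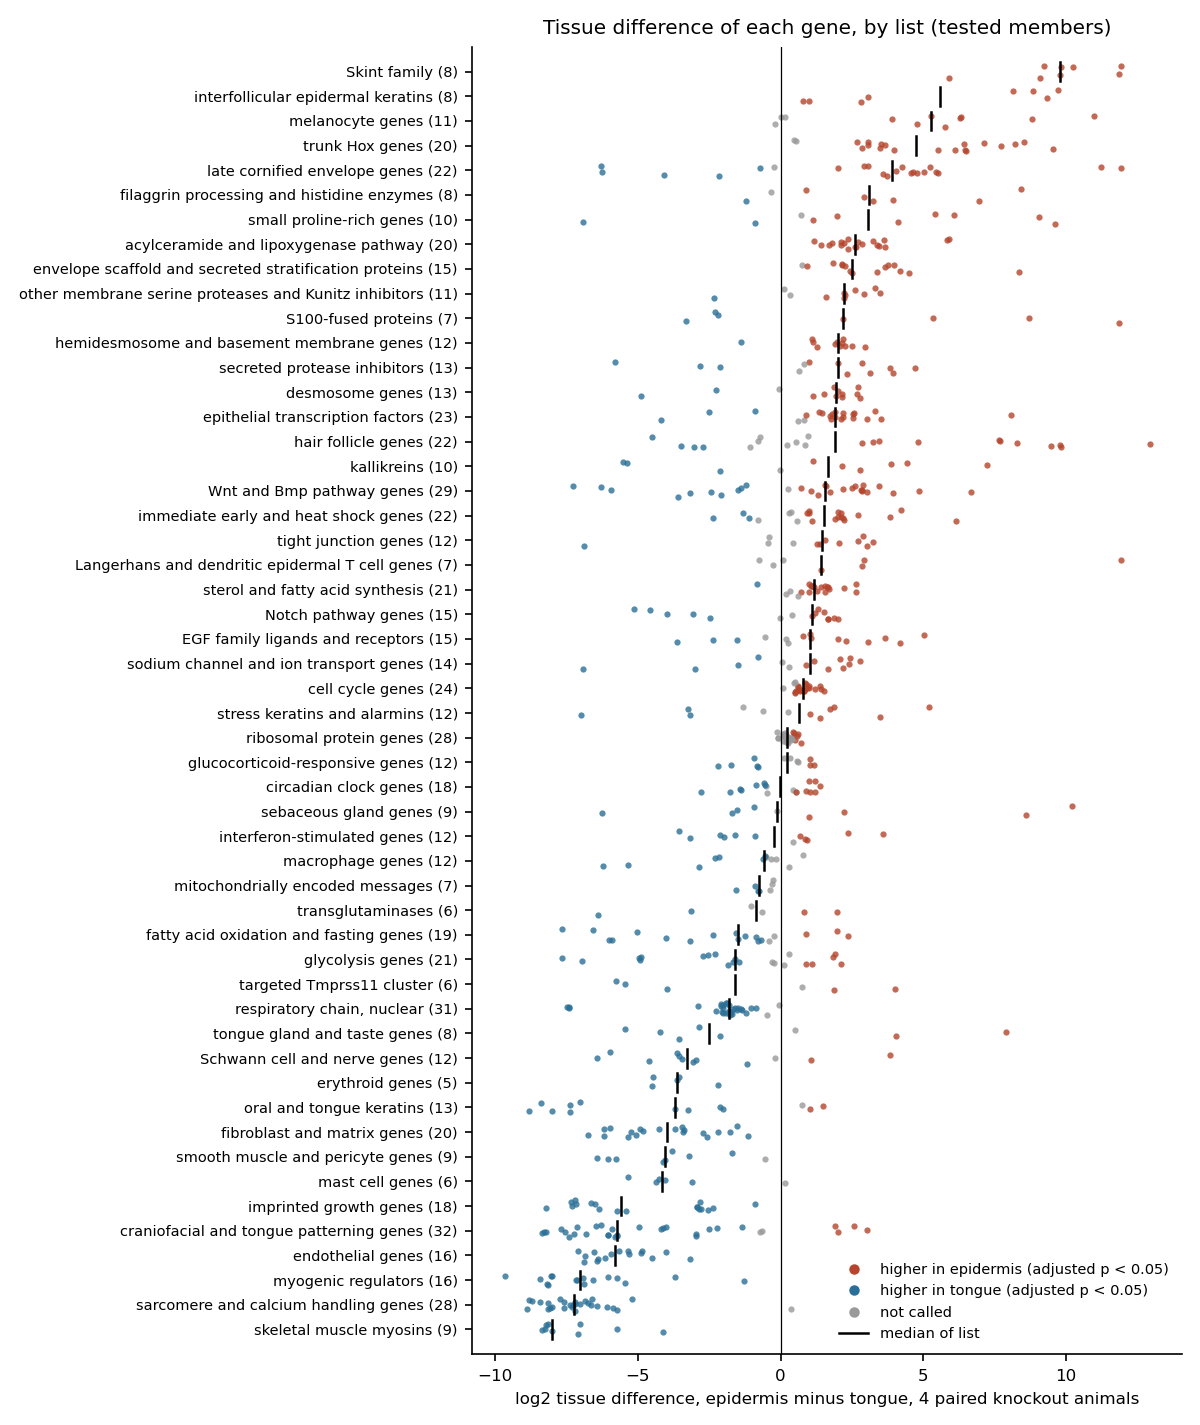
Log2 tissue difference of each tested member of the gene lists (points; the number tested is in brackets), with the list's median as a black bar and the lists ordered by it. Red points were higher in epidermis, blue points higher in tongue and grey points not called; the Skint family lies at the epidermal end and the skeletal muscle myosins at the tongue end.

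Genes absent or nearly absent from 1 tissue headed both directions. In epidermis these were the inner root sheath keratin Krt25, the lipase Lipn, the T cell selection gene Skint1, its relative Skint10 and the cornified envelope genes Lce1m and Lce6a. The others were filaggrin 2 (Flg2), the cytochromes Cyp2b19 and Cyp2g1, the pigment enzyme tyrosinase (Tyr), Serpina12 and Wfdc21. Flg2 had 5786, 8625, 4845 and 5994 CPM in the epidermis of the 4 animals in number order and 1.25, 3.53, 2.12 and 0.608 in their tongues (log2 11.87 ± 0.54 SE, adjusted p = 1.6e-07). Cyp2b19, an arachidonic acid epoxygenase of keratinocytes, had 607 ± 167 CPM in epidermis and 0.214 ± 0.266 in tongue (log2 11.53 ± 0.5 SE, adjusted p = 1.4e-07). Krt25, Lipn, Skint1, Skint10, Tyr and Cyp2g1 had no read in any tongue library, so that only lower bounds can be given: with 3 counts per tongue library as the floor, Krt25 was at least 302-fold (156-fold without A328), Lipn at least 186-fold and Tyr at least 75.6-fold higher in epidermis.

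At the tongue end stood skeletal muscle genes. The small heat shock protein Hspb3, the acetylcholine receptor subunit Chrna1, the muscle isomerase Idi2, the glycogen phosphatase subunit Ppp1r3a, the Z-disc protein Csrp3, the fast troponin Tnnt3, the thin filament nucleator Lmod3 and Atp1b4 all belong to muscle. Chrna1, whose promoter with its E-boxes is printed above, had 0, 0.0819, 0.113 and 0 CPM in the epidermis and 46, 54.7, 30.4 and 49 in the tongue of the 4 animals (log2 -9.66 ± 0.43 SE, adjusted p = 1.5e-07). The secreted Angptl7 had 0.0954 ± 0.157 CPM in epidermis and 53.1 ± 45.3 in tongue (log2 -9.18 ± 0.69 SE, adjusted p = 2.6e-06). Wfdc1, Avpr1a and Lrtm1 completed the 12 largest, all with 4 tongue values above the 4 epidermis values.

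The targeted proteases themselves still gave reads in the libraries labelled knockout, and they divided between the tissues. Tmprss11f, known as HAT-like 4, had 101, 222, 145 and 159 CPM in the epidermis and 9.5, 8.56, 8.27 and 10.9 in the tongue of A328, A343, A386 and A387, which is 16.3-fold higher in epidermis (log2 4.02 ± 0.24 SE, adjusted p = 5.8e-07). Tmprss11g had 5.89, 18.9, 11.1 and 9.05 and 2.02, 2.25, 3.43 and 3.71 CPM (log2 1.88 ± 0.31 SE, adjusted p = 5.4e-04). In these 2 genes every epidermis value was above every tongue value. Tmprss11a had 1.14, 2.54, 2.03 and 2.09 CPM in epidermis and 77.6, 77.2, 88.3 and 85.1 in tongue (log2 -5.43 ± 0.24 SE, adjusted p = 1.5e-07). Tmprss11d, the human airway trypsin-like protease, had 0.541, 0.573, 0.564 and 0.638 and 34.7, 36.5, 25.9 and 31 (log2 -5.75 ± 0.23 SE, adjusted p = 1.2e-07). Tmprss11b had 1.19, 0.327, 0.902 and 1.1 and 11.9, 11, 16 and 16.3 (log2 -3.97 ± 0.3 SE, adjusted p = 2.6e-06). For these 3 the order was the other way round, with no overlap. Tmprss11e had 2.7, 2.7, 1.8 and 2.26 CPM in epidermis and 1.64, 0.901, 1.01 and 2.13 in tongue, and the groups overlapped (log2 0.77 ± 0.36 SE, adjusted p = 0.085). With library totals as the scale it passed, at a log2 difference of 1 (adjusted p = 0.033). Tmprss11c was not analysed here.

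Per kilobase of exon, Tmprss11f reached 23.1 CPM in epidermis, where the other 5 lay between 0.207 (Tmprss11d) and 2.24 (Tmprss11g). In tongue Tmprss11a reached 14.4 CPM per kilobase and Tmprss11d 11.5, against 1.37 for Tmprss11f. All are on the cluster of mouse chromosome 5, for example Tmprss11f at chr5:86521898-86632424, minus strand and Tmprss11d at chr5:86302217-86373420, minus strand in GRCm38. In wild-type libraries, scaled on their own, the tissue differences were 4.23 for Tmprss11f, 1.25 for Tmprss11g, -0.24 for Tmprss11e, -3.95 for Tmprss11b, -6.72 for Tmprss11a and -5.7 for Tmprss11d. Wild-type epidermis averaged 246 CPM of Tmprss11f and wild-type tongue 229.7 CPM of Tmprss11a. The reads are counted per whole gene, so they do not show whether the edited alleles were intact. They therefore check neither the deletion nor the genotype label.

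**Figure D3:**
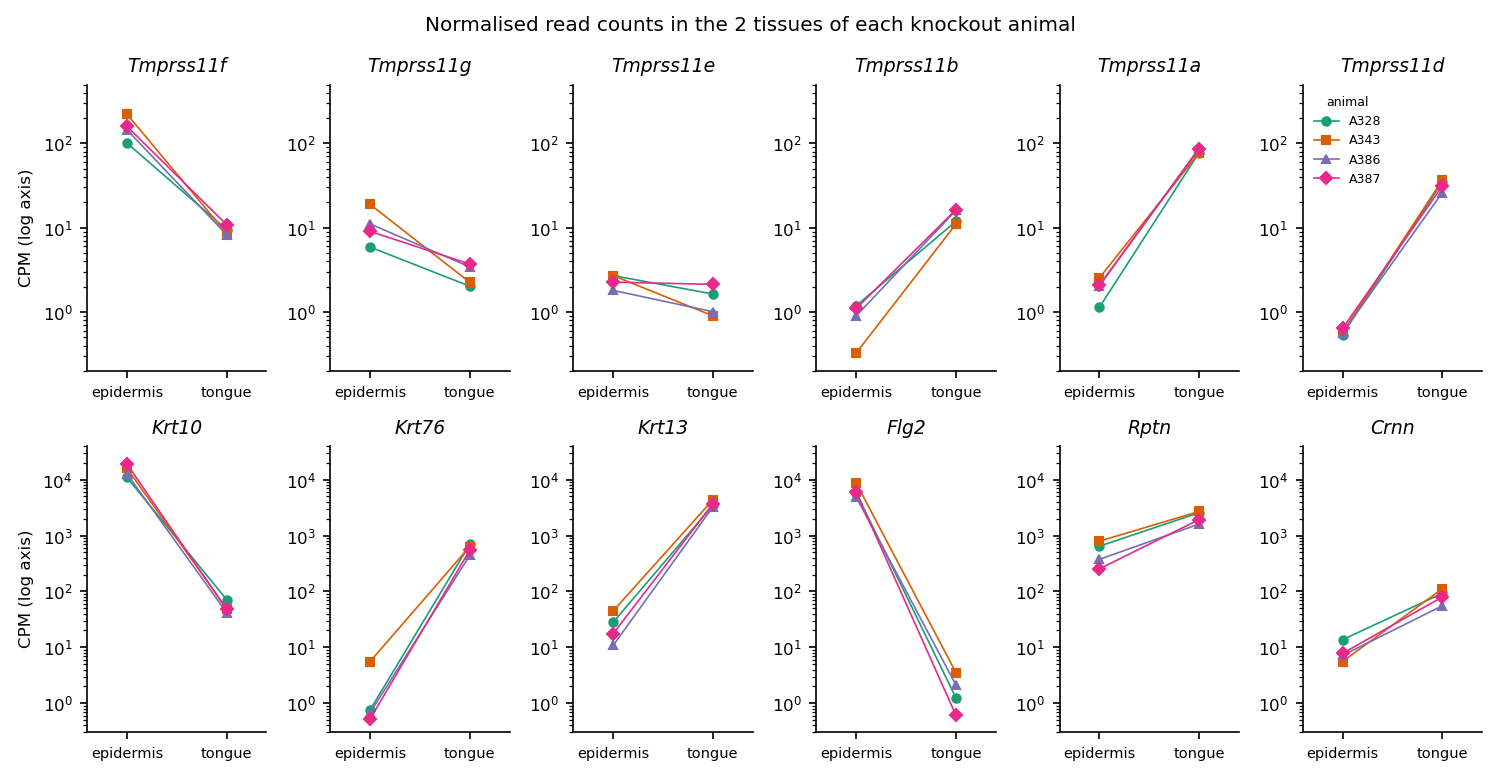
CPM (log axis, the same range within each row) in the epidermis and tongue of each knockout animal, 1 line per animal, for the 6 targeted proteases (top) and 6 keratins and S100-fused genes (bottom). Tmprss11f, Krt10 and Flg2 descend from epidermis to tongue in all 4 animals, Tmprss11a, Krt13, Krt76, Rptn and Crnn ascend, and Tmprss11e has overlapping values.

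Other proteases of the cell surface were mostly higher in epidermis. Of 11 tested membrane serine proteases and Kunitz inhibitors, 8 were higher in epidermis, 1 in tongue and 2 were not called, with a median of 2.22. Prss8, or prostasin, a channel-activating protease of the barrier, had 90 ± 33 CPM in epidermis and 18.2 ± 2.92 in tongue (log2 2.25 ± 0.26 SE, adjusted p = 4.4e-05). Tmprss13 had 174 ± 40.2 and 28.2 ± 3.59 (log2 2.6 ± 0.19 SE, adjusted p = 2.3e-06), and Tmprss4 146 ± 62.3 and 12.1 ± 2.56 (log2 3.47 ± 0.23 SE, adjusted p = 1.0e-06). Tmprss2 went the other way, with 1.14, 0.491, 0.564 and 0.29 CPM in epidermis and 5.68, 0.976, 4.94 and 1.82 in tongue (log2 -2.35 ± 0.42 SE, adjusted p = 8.1e-04). Its highest tongue value was that of A328, the library with lung messages, and its groups overlapped.

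Kallikreins, secreted proteases that cut the links between shedding cells, split within the family. Of 10 tested, 6 were higher in epidermis and 3 in tongue. Klk7 had 848 ± 214 CPM in epidermis and 39.7 ± 13.9 in tongue (log2 4.43 ± 0.26 SE, adjusted p = 5.9e-07), and Klk5 had 259.6 ± 86.6 and 17.2 ± 3.35 (log2 3.88 ± 0.2 SE, adjusted p = 3.0e-07). Klk14 instead had 0.919, 0.9, 0.676 and 1.22 CPM in epidermis and 63.5, 21.8, 58.5 and 35.5 in tongue (log2 -5.52 ± 0.33 SE, adjusted p = 5.9e-07), and Klk12 behaved alike, at 0.504 ± 0.275 and 20.4 ± 3.51 (log2 -5.39 ± 0.3 SE, adjusted p = 4.2e-07). Klk13 stood at 45.4 ± 13.5 and 44.6 ± 2.87 CPM and was not called (log2 -0.03 ± 0.21 SE). Thus Klk5 and Klk7 on the one side and Klk12 and Klk14 on the other each differed by more than 10-fold, in opposite directions.

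Among 13 tested secreted inhibitors, 8 were higher in epidermis and 3 in tongue. Spink5, which encodes the kallikrein inhibitor LEKTI, had 1761 ± 463 CPM in epidermis and 428 ± 27.7 in tongue (log2 2 ± 0.26 SE, adjusted p = 1.1e-04). Serpinb7 had 338 ± 128 and 12.5 ± 3.69 (log2 4.71 ± 0.26 SE, adjusted p = 4.2e-07). The secretory leukocyte inhibitor Slpi had 4.11, 3.85, 4.9 and 5.63 CPM in epidermis and 243, 275, 227 and 284 in tongue (log2 -5.8 ± 0.21 SE, adjusted p = 1.1e-07), and Serpinb3a had 189 ± 83.5 and 761 ± 105 (log2 -2.12 ± 0.33 SE, adjusted p = 3.3e-04). The groups did not overlap in either gene.

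Keratins divided between the 2 epithelia. All 8 tested interfollicular keratins were higher in epidermis (median 5.6), against 7 without A343 or without A386 and 6 without A387. Of 13 oral and tongue keratins, 10 were higher in tongue (median -3.69, and -6.44 in wild type, in both the value of Krt90). Of that list 3 were higher in epidermis without A328, against 2 with it. The suprabasal pair Krt1 and Krt10 had 21762 ± 5879 and 14657 ± 3589 CPM in epidermis and 33.3 ± 3.69 and 52.6 ± 13 in tongue, differences of 9.32 ± 0.46 and 8.12 ± 0.44 (SE). The basal pair Krt5 and Krt14 differed far less, by 3.08 ± 0.25 and 2.83 ± 0.24. Krt4 and Krt13, the suprabasal pair of the oral lining, had 2776, 3189.8, 2726 and 2921 and 3472, 4347, 3240.2 and 3693 CPM in the 4 tongues and 20.8, 40.5, 8.17 and 13.3 and 28.1, 44.9, 10.8 and 17.6 in the 4 epidermis samples, with adjusted p of 6.3e-07 and 4.1e-07. Krt76, of the palate and the attached oral surface, had 0.757, 5.57, 0.676 and 0.522 CPM in epidermis and 696, 635, 439 and 546 in tongue (log2 -8.81 ± 0.58 SE, adjusted p = 1.1e-06); its highest epidermis value was that of A343. The hard keratin Krt36 had 2.18 ± 2.56 and 407 ± 44.4 (log2 -8.02 ± 0.64 SE, adjusted p = 3.8e-06). Krt78 and Krt23, 2 members of that list, were higher in epidermis, by 1.05 and 1.49, and Krt7 was not called.

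Keratins that wounded skin switches on did not move together. Krt16 and Krt17 were higher in epidermis (log2 1.04 ± 0.23 SE, adjusted p = 0.00288) and (log2 1.4 ± 0.27 SE, adjusted p = 0.00144), Krt6a was higher in tongue (log2 -3.18 ± 0.5 SE, adjusted p = 3.8e-04), and Krt6b was not called (log2 0.25 ± 0.42 SE, adjusted p = 0.63). Krt6b was higher in epidermis in A328 and A343 alone (1.17, adjusted p = 0.0155) and higher in tongue in A386 and A387 alone (-0.81, adjusted p = 0.0056). Krt6a had 118, 365, 73.4 and 22.4 CPM in the epidermis and 870.2, 1103, 697 and 790.5 in the tongue of the 4 animals, so that the animals spread more in epidermis. The antimicrobial peptide Defb4 had 0.938 ± 0.619 CPM in epidermis and 109 ± 24.5 in tongue (log2 -6.98 ± 0.29 SE, adjusted p = 1.4e-07), and the alarmin Il33 4.27 ± 4.91 and 28.5 ± 5 (log2 -3.23 ± 0.39 SE, adjusted p = 6.5e-05), while the cytokine Il18 was higher in epidermis (log2 3.47 ± 0.23 SE, adjusted p = 1.2e-06). With A386 and A387 alone, the list of 12 tested members divided into 6 higher in each tissue, against 6 and 3 with all 4 animals, and without A343 5 were higher in tongue.

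The late cornified envelope family divided by subgroup. Of 22 tested members 16 were higher in epidermis and 5 in tongue. Lce1m had 789, 1663, 970.1 and 992 CPM in the epidermis and 0.0779, 0.601, 0.303 and 0.182 in the tongue of the 4 animals (log2 11.93 ± 0.38 SE, adjusted p = 1.1e-07). Lce1a1 and Lce1c differed by 5.43 ± 0.23 and 5.51 ± 0.25. In the Lce3 subgroup, Lce3a had 0.541, 1.64, 0.564 and 0.754 CPM in epidermis and 38.8, 86.9, 54.2 and 84.6 in tongue (log2 -6.29 ± 0.25 SE, adjusted p = 1.2e-07). Lce3b (log2 -6.24 ± 0.28 SE, adjusted p = 1.5e-07), Lce3f (log2 -4.09 ± 0.19 SE, adjusted p = 1.9e-07) and Lce3c (log2 -0.72 ± 0.19 SE, adjusted p = 0.00744) were also higher in tongue, whereas Lce3d was not called (log2 -0.22 ± 0.26 SE, adjusted p = 0.469). Lce3c lost its call with library totals (adjusted p = 0.0556). These genes are near-identical copies whose short reads the counting could have split, so single members are uncertain.

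The small proline-rich genes, envelope crosslinkers, showed the same kind of split. Of 10 tested, 7 were higher in epidermis and 2 in tongue, and without A328 or without A343 3 of 11 were higher in tongue. The median was 3.05, and 1.62 in wild type, where Sprr2e was not tested. Sprr2d had 13.7, 15.2, 62.3 and 54.5 CPM in epidermis and 0, 0, 0 and 0.122 in tongue (log2 9.63 ± 0.41 SE, adjusted p = 1.4e-07). Sprr3, an envelope protein of wet stratified linings, had 6.32, 4.83, 4.34 and 7.83 and 679, 772, 586 and 726 (log2 -6.91 ± 0.27 SE, adjusted p = 1.1e-07). Sprr1b was higher in epidermis (log2 1.99 ± 0.24 SE, adjusted p = 6.8e-05) and Sprr1a in tongue (log2 -0.88 ± 0.19 SE, adjusted p = 0.00272), the latter with overlapping groups. Copies of Sprr2 are close in sequence and carry the same caution.

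All 7 S100-fused genes were called, 4 higher in epidermis and 3 in tongue. Without A328, without A343 or without A386, 3 were higher in epidermis. Flg, whose product gathers keratin filaments and is then broken down to moisturising amino acids, had 3645, 5658, 3553 and 4492 CPM in epidermis and 21, 8.56, 7.87 and 7.72 in tongue (log2 8.7 ± 0.48 SE, adjusted p = 3.7e-07). Hornerin (Hrnr) had 5588 ± 1556 and 134 ± 14.6 (log2 5.33 ± 0.34 SE, adjusted p = 8.2e-07). Repetin (Rptn) had 645, 794, 375 and 254 CPM in epidermis and 2557, 2693, 1602 and 1929 in tongue (log2 -2.19 ± 0.28 SE, adjusted p = 8.7e-05), and cornulin (Crnn) 13.7, 5.57, 7.16 and 7.77 and 92.2, 111, 55.1 and 79.2 (log2 -3.32 ± 0.26 SE, adjusted p = 3.8e-06). Rptn and Crnn had higher values in the epidermis of A328 than of A386 or A387, but no epidermis value reached a tongue value. Trichohyalin (Tchh), of the inner root sheath and of filiform papillae, had 270.4, 67.7, 43.3 and 29.2 and 431, 257, 367 and 302 CPM (log2 -2.28 ± 0.42 SE, adjusted p = 9.7e-04), with groups that overlapped through A328. Flg2, Rptn and Crnn each hold the TGANTCA pattern marked above, and lay on both sides of the comparison.

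Other proteins of the envelope were higher in epidermis as a group. Of 15 tested, 14 were higher in epidermis and none in tongue, with a median of 2.51. The calcium-binding Calm4 had 3960.4 ± 876 CPM in epidermis and 375 ± 78.4 in tongue (log2 3.4 ± 0.31 SE, adjusted p = 1.0e-05), dermokine (Dmkn) 3969 ± 651 and 292 ± 43.7 (log2 3.76 ± 0.29 SE, adjusted p = 2.9e-06), and periplakin (Ppl) 1392 ± 125 and 301 ± 92.6 (log2 2.25 ± 0.27 SE, adjusted p = 6.4e-05). Cornifelin (Cnfn) was not called (log2 0.76 ± 0.37 SE, adjusted p = 0.0973), but passed without A386 (adjusted p = 0.0161). Of the transglutaminases, which crosslink the envelope, Tgm1 was higher in epidermis (log2 1.96 ± 0.21 SE, adjusted p = 2.9e-05), as was Tgm5 (log2 0.83 ± 0.19 SE, adjusted p = 0.00373). Tgm3 had 72.4, 159.6, 122 and 140.0 CPM in epidermis and 249, 195, 146 and 179.6 in tongue and did not pass (log2 -0.66 ± 0.27 SE, adjusted p = 0.053), although it passed with 8 other settings, among them DESeq2 (adjusted p = 0.0274). The widely expressed Tgm2 was higher in tongue (log2 -6.39 ± 0.42 SE, adjusted p = 1.1e-06), as was Tgm7 (log2 -3.15 ± 0.32 SE, adjusted p = 1.8e-05). Without A328 or without A343, 3 of 6 transglutaminases were higher in tongue, against 2 with it.

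Of 8 tested enzymes of filaggrin processing and histidine breakdown, 6 were higher in epidermis, 1 in tongue and 1 was not called. Caspase-14 (Casp14) had 398, 564, 477 and 678 CPM in epidermis and 1.25, 2.1, 1.31 and 1.52 in tongue (log2 8.42 ± 0.27 SE, adjusted p = 1.1e-07). The histidine ammonia-lyase Hal, which makes urocanic acid from filaggrin's histidine, had 506, 985, 559 and 591 and 4.36, 4.2, 7.16 and 5.41 (log2 6.94 ± 0.33 SE, adjusted p = 2.0e-07). The retroviral-like protease Asprv1 had 5342 ± 1865 and 335 ± 63.7 (log2 3.95 ± 0.29 SE, adjusted p = 2.3e-06). All 20 genes of the acylceramide and lipoxygenase pathway were higher in epidermis, 19 of them by more than 2-fold (median 2.61). The lipid transporter Abca12 had 1505 ± 360.0 CPM in epidermis and 135 ± 19 in tongue (log2 3.45 ± 0.29 SE, adjusted p = 5.5e-06), the fatty acid elongase Elovl4 812 ± 198 and 121 ± 11.6 (log2 2.72 ± 0.26 SE, adjusted p = 1.2e-05), and the lipoxygenase Alox12b 348 ± 85.3 and 72.9 ± 6.99 (log2 2.23 ± 0.23 SE, adjusted p = 2.4e-05). Of 21 sterol and fatty acid synthesis genes, 17 were higher in epidermis with a smaller median of 1.16. Fasn differed by 1.63 and Hmgcs1 by 0.72, while the feedback regulator Insig1 was higher in tongue (log2 -0.81 ± 0.2 SE, adjusted p = 0.00598).

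Adhesion genes followed the epithelium with a few exceptions. Of 13 desmosome genes, 10 were higher in epidermis and 2 in tongue. Desmoplakin (Dsp) differed by 2 ± 0.32 and the upper-layer cadherin Dsc1 by 2.71 ± 0.26. Dsc2 had 12.2, 16, 15 and 12.5 CPM in epidermis and 394, 367, 467 and 429.6 in tongue (log2 -4.9 ± 0.22 SE, adjusted p = 1.5e-07). Dsg3, a cadherin found throughout oral epithelium and in the lower layers of skin, stood at 156 ± 34.9 and 161 ± 43.3 CPM (log2 -0.04 ± 0.18 SE, adjusted p = 0.87). Of 12 hemidesmosome and basement membrane genes 11 were higher in epidermis, among them Col17a1 (log2 2.08 ± 0.2 SE, adjusted p = 1.5e-05), and the tetraspanin Cd151 was higher in tongue (log2 -1.4 ± 0.17 SE, adjusted p = 5.4e-05). Of 12 tight junction genes 8 were higher in epidermis, such as Cldn1 (log2 2.7 ± 0.25 SE, adjusted p = 1.1e-05), and the endothelial claudin Cldn5 was higher in tongue (log2 -6.89 ± 0.56 SE, adjusted p = 4.0e-06).

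Of 23 epithelial transcription factors, 18 were higher in epidermis, 3 in tongue and 2 were not called. Trp63, the master factor of stratified epithelia, had 289, 313, 435 and 402 CPM in epidermis and 81.8, 83.5, 128 and 116 in tongue (log2 1.82 ± 0.18 SE, adjusted p = 1.4e-05). Klf4 and Grhl1, which drive the upper layers, differed by 1.91 and 2.12. Sox2, a factor of oral and tongue epithelium, had 0.487, 0.409, 0.282 and 0.348 and 6.7, 6.68, 8.27 and 6.5 CPM (log2 -4.18 ± 0.33 SE, adjusted p = 3.8e-06), and Ehf 50.7 ± 11.9 and 92.6 ± 7.18 (log2 -0.9 ± 0.19 SE, adjusted p = 0.00212). Trp63 was thus 3.53-fold lower in the tongue libraries, while Sox2 and Ehf were higher there.

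Positional genes divided between epidermis and tongue. Of 20 tested trunk Hox genes 18 were higher in epidermis and 0 in tongue (median 4.74). Without A343, and in A386 and A387 alone, 23 were tested, of which 20 were higher in epidermis and 1 in tongue. Hoxc8 had 9.57, 3.36, 6.31 and 6.03 CPM in epidermis and no read in tongue, at least 27.7-fold higher. Hoxa7 had 16, 6.88, 17.6 and 14.8 and 0.234, 0, 0 and 0 (log2 7.72 ± 0.55 SE, adjusted p = 1.7e-06), while Hoxc13, of hair and nails but also of filiform papillae, was not called (log2 0.53 ± 0.51 SE, adjusted p = 0.391), except in A328 and A343 alone (adjusted p = 0.00674). Of 32 craniofacial and tongue patterning genes 26 were higher in tongue and 4 in epidermis. Pax9, required for filiform papillae, had 0.108, 1.15, 0.113 and 0 CPM in epidermis and 60.4, 46, 53.3 and 45.5 in tongue (log2 -7.53 ± 0.6 SE, adjusted p = 3.6e-06). The 4 exceptions were Barx2, Dlx3, Dlx4 and Dlx5. Of these Dlx3, a regulator of epidermal differentiation, had 41.3 ± 10.2 and 6.99 ± 2.43 (log2 2.58 ± 0.3 SE, adjusted p = 5.4e-05).

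Of 22 tested hair follicle genes, 11 were higher in epidermis and 4 in tongue. Without the pair of A328 the counts were 12 and 7. The inner root sheath keratin Krt71 had 249, 91.6, 51.7 and 11.4 CPM in the epidermis of A328, A343, A386 and A387 and 0.0779, 0.225, 0 and 0.0608 in their tongues (log2 9.78 ± 0.43 SE, adjusted p = 1.5e-07). Krt25 had 169, 63.6, 36 and 7.08 and Krt73 63.6, 23.7, 13.3 and 2.67 CPM in epidermis. In all 3 genes A328 was highest and A387 lowest. The hard hair keratins Krt34 (log2 -4.5 ± 0.52 SE, adjusted p = 4.9e-05), Krt86 (log2 -3.47 ± 0.52 SE, adjusted p = 2.8e-04) and Krt31 (log2 -3.02 ± 0.52 SE, adjusted p = 6.5e-04) were higher in tongue, where hard keratins build the filiform papillae.

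Pigment cell genes and the Skint genes were mostly read in the epidermis libraries. Skint1 of the Skint family selects skin-homing gamma delta T cells. All 8 tested Skint genes were higher in epidermis (median 9.8), and their summed level in tongue was at most 0.504 CPM. Skint2 had 20.8, 46.1, 34.4 and 54.5 CPM in epidermis and 0, 0.0751, 0 and 0.0608 in tongue (log2 9.77 ± 0.36 SE, adjusted p = 1.1e-07). They are close copies, and their split into single genes is uncertain. Of 11 melanocyte genes 8 were higher in epidermis, such as Dct (log2 8.79 ± 0.33 SE, adjusted p = 1.1e-07) and Pmel (log2 6.29 ± 0.47 SE, adjusted p = 2.6e-06). Kit and Mitf, which melanocytes share with mast cells and other cells, had 18.8 ± 5.28 and 11.5 ± 3.29 CPM in epidermis and 17 ± 4.32 and 11.2 ± 2.84 in tongue, and neither was called. Mast cell genes were higher in tongue for 5 of 6 tested members, among them Cpa3 (log2 -4.37 ± 0.28 SE, adjusted p = 1.0e-06). Of 12 macrophage genes 7 were higher in tongue and none in epidermis. Lyve1, also a lymphatic gene, differed by -6.21, while the pan-macrophage receptor Csf1r stood at 26.8 ± 2.65 and 30.3 ± 5.29 CPM and was not called.

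The taste list held a few genes higher in epidermis. Pou2f3, required for sweet, bitter and umami taste cells and also a keratinocyte factor, had 97.5, 128, 112 and 117 CPM in epidermis and 0.311, 0.676, 0.403 and 0.486 in tongue (log2 7.89 ± 0.24 SE, adjusted p = 1.1e-07). The taste receptor subunit Tas1r3 had 13.8, 16.5, 7.1 and 8.53 and 0.389, 0.901, 1.01 and 0.486 (log2 4.03 ± 0.36 SE, adjusted p = 8.7e-06). The taste channel Trpm5 was higher in tongue, at 0.0836 ± 0.0706 and 4.52 ± 1.83 CPM (log2 -5.45 ± 0.57 SE, adjusted p = 2.4e-05), as was Prox1 (log2 -4.22 ± 0.28 SE, adjusted p = 1.0e-06). Of the 8 tested members, 2 were higher in epidermis and 5 in tongue. The share of taste buds in the tongue samples is not known.

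Muscle, connective tissue, vessel and nerve genes were mostly higher in tongue. All 9 tested skeletal myosins, 27 of 28 sarcomere and calcium handling genes and all 16 myogenic regulators were higher in tongue, with medians of -8, -7.23 and -7.02. The perinatal myosin Myh8 had 37.8, 88.2, 28.8 and 10.2 CPM in epidermis and 8212, 11609, 11038 and 12092 in tongue (log2 -8.36 ± 0.64 SE, adjusted p = 2.8e-06), and the embryonic myosin Myh3 4.32, 11.1, 3.83 and 2.9 and 404, 504, 886 and 1058 (log2 -7.08 ± 0.53 SE, adjusted p = 2.6e-06). The regulator Myog had 0.289 ± 0.247 and 71.3 ± 5.65 (log2 -8.04 ± 0.35 SE, adjusted p = 1.4e-07). Muscle messages were present at low level in every epidermis library, the sarcomere list summing to 448 to 1128 CPM there and to 32316 to 53371 in tongue. The calcium pump Atp2a2, which keratinocytes also need, was the one sarcomere list member not called, at 295 ± 39.1 and 230.1 ± 15.7 CPM, and passed as higher in epidermis with library totals (adjusted p = 0.0123).

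Fibroblast and matrix genes were higher in tongue in 20 of 20 cases and endothelial genes in 16 of 16. Col3a1 had 126 ± 61.3 CPM in epidermis and 3219 ± 228 in tongue (log2 -4.81 ± 0.37 SE, adjusted p = 2.9e-06), and Postn had 425 ± 163 and 1808 ± 125 (log2 -2.17 ± 0.31 SE, adjusted p = 1.8e-04). Pecam1 had 1.45 ± 0.744 and 127 ± 22.9 (log2 -6.53 ± 0.31 SE, adjusted p = 1.9e-07). The fibroblast list summed to 1383 to 1761 CPM in epidermis and the endothelial list to 5.8 to 18.2 CPM. Their sums in tongue were 12353 to 13651 and 445 to 665 CPM. Nerve sheath genes were higher in tongue in 9 of 12 cases, as Pmp22 (log2 -6.42 ± 0.27 SE, adjusted p = 1.4e-07), but Mbp (log2 1.07 ± 0.2 SE, adjusted p = 0.00114) and Egr2 (log2 3.85 ± 0.24 SE, adjusted p = 7.4e-07) were higher in epidermis. All 18 imprinted growth genes were higher in tongue, from H19 with 1671 ± 231 and 11862 ± 2461 CPM (log2 -2.81 ± 0.33 SE, adjusted p = 4.9e-05) to Rian with 16.1 ± 14.6 and 3661 ± 555 (log2 -8.2 ± 0.57 SE, adjusted p = 1.5e-06).

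Energy metabolism leaned to the tongue. Of 31 nuclear respiratory chain genes 29 were higher in tongue and none in epidermis (median -1.81), for example the ATP synthase subunit Atp5b (log2 -1.79 ± 0.25 SE, adjusted p = 1.9e-04). Messages encoded by mitochondrial DNA differed less: 4 of 7 were higher in tongue, and 1 of them without A387 and 2 without A328. Their median was -0.74 in the knockouts and -0.1 in wild type. Glycolysis divided by isoform. The muscle enolase Eno3 had 9.92 ± 7.05 and 1749 ± 223 CPM (log2 -7.67 ± 0.42 SE, adjusted p = 3.8e-07), whereas the glucose transporter Slc2a1 (log2 2.11 ± 0.16 SE, adjusted p = 3.0e-06) and the liver-type phosphofructokinase Pfkl (log2 1.9 ± 0.17 SE, adjusted p = 8.8e-06) were higher in epidermis. In fatty acid use, the transporter Cd36 was higher in tongue (log2 -5.99 ± 0.31 SE, adjusted p = 2.9e-07).

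Cell cycle genes were modestly higher in epidermis. Of 24 tested 21 were higher there, 1 by more than 2-fold, with a median of 0.8, and 14 were higher there without A328, without A343 or without A386, and 8 with A386 and A387 alone. Mki67 had 256 ± 59.6 CPM in epidermis and 134 ± 37.2 in tongue (log2 0.94 ± 0.2 SE, adjusted p = 0.00262). Of 22 immediate early and heat shock genes 15 were higher in epidermis. Fos had 18.3, 126, 169 and 173 CPM in epidermis and 12.2, 10.7, 22.8 and 15.2 in tongue (log2 2.7 ± 0.45 SE, adjusted p = 5.5e-04), and the groups overlapped. It was not called in A328 and A343 alone (adjusted p = 0.125). The Fos difference was 0.73 in wild type. Epidermis had been warmed during separation, no such step is described for the tongue, and handling and tissue cannot be told apart. Of 28 ribosomal protein genes 6 (21.4%) were higher in epidermis, a smaller share than the 31.4% of all genes tested. The count was 14 when scaled by library totals, 4 without A328, 2 without A343 and 1 without A387.

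Signalling families contained members of both sides, as did all genes tested, of which 31.4% were higher in epidermis and 30.5% in tongue. In the EGF family list these shares were 60% and 20%. Of 15 genes of the EGF family list 9 were higher in epidermis, such as the receptors Erbb2 (log2 2.3 ± 0.24 SE, adjusted p = 2.2e-05) and Erbb3 (log2 2.02 ± 0.22 SE, adjusted p = 2.8e-05), and 3 in tongue (2 without A328, A386 or A387), such as Erbb4 (log2 -3.61 ± 0.29 SE, adjusted p = 4.3e-06). Notch1 was higher in epidermis (log2 2.01 ± 0.21 SE, adjusted p = 2.0e-05) and the vascular Notch4 (log2 -3.98 ± 0.39 SE, adjusted p = 1.6e-05) and its ligand Dll4 (log2 -3.07 ± 0.45 SE, adjusted p = 2.4e-04) in tongue. In the Wnt and Bmp list, the stem cell receptor Lgr6 had 80.8 ± 30.4 CPM in epidermis and 5.13 ± 1.45 in tongue (log2 3.95 ± 0.25 SE, adjusted p = 8.5e-07), and the Bmp antagonist Chrdl1 0.433 ± 0.338 and 63 ± 10.4 (log2 -7.27 ± 0.35 SE, adjusted p = 2.0e-07). Lgr5 was not called (log2 0.26 ± 0.32 SE, adjusted p = 0.494).

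Because both tissues came from the same animals, differences between animals that the tissues share could be tested too. In that test 4 of 16398 genes (0.0244%) were called at an adjusted p under 0.05, and 924 had an unadjusted p under 0.05. Fkbp5, a chaperone that glucocorticoids induce, had 49.8, 40.2, 254 and 208 CPM in the epidermis of A328, A343, A386 and A387 and 29.7, 16.9, 111 and 74.4 in their tongues (adjusted p = 0.0275). Zbtb16, another glucocorticoid-responsive gene, had 35, 8.92, 124 and 132 and 33.3, 13.4, 117 and 73.7 (adjusted p = 0.0303). In both genes and both tissues A386 and A387 were above A328 and A343. Angptl4, a lipase inhibitor that fasting and fatty acids induce, had 3.68, 12.2, 0.845 and 0.638 and 22.5, 61.1, 3.73 and 2.92 (adjusted p = 0.00185), with the order of these pairs of animals reversed. The fourth, Krt73, rested on epidermis alone, since 3 of its 4 tongue values were 0 (adjusted p = 0.0303). None of the 4 was called with every pair left out in turn. Without A343 the adjusted p was 0.0523 for Angptl4, 0.0536 for Fkbp5 and 0.0951 for Zbtb16, and without A386 it was 0.163 for Fkbp5 and Zbtb16. For Krt73 it was 0.361 without A328, 0.102 without A386 and 0.279 without A387.

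Other genes near the top of that ranking did not pass. After Fabp3 came Atp8b3, Xist, Eif2s3y and Gm10800, none of which divided A386 and A387 from A328 and A343 in both tissues, and Krt71 (adjusted p = 0.0727 each). Klf9 had 9.3, 4.5, 30.3 and 20.4 CPM in epidermis and 54.5, 26.7, 96.4 and 86.1 in tongue (adjusted p = 0.121), and the muscle wasting ligase Fbxo32 16.6, 11.3, 41.5 and 35.6 and 31.6, 31.5, 85.9 and 71.6 (adjusted p = 0.121). The fatty acid carrier Fabp3 had 86.3, 155, 13.2 and 24.1 CPM in tongue (adjusted p = 0.0637). Of the 12 glucocorticoid-responsive genes, 11 were higher in A386 and A387 than in the other animals in both tissues, with medians of 1.08 in epidermis and 0.9 in tongue on the log2 scale. Of all genes tested, 23.2% were higher in both tissues and 26.4% lower in both. Of 19 fatty acid oxidation and fasting genes, 12 were lower in A386 and A387 in both tissues. The first list holds 2 of the genes called in this test and the second holds 1. Other lists divided by animal too. In both tissues of A386 and A387, 17 of 24 cell cycle genes and 17 of 28 ribosomal protein genes were higher. Likewise 14 of 16 endothelial genes and 10 of 12 stress keratins and alarmins were lower. The numbers A386 and A387 fall in a separate range (A38x), and the labels do not say whether it marks another litter or day. The spread between animals within a tissue and their number limit this test, which called 9 genes with limma-voom and 132 with DESeq2.

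**Figure D4:**
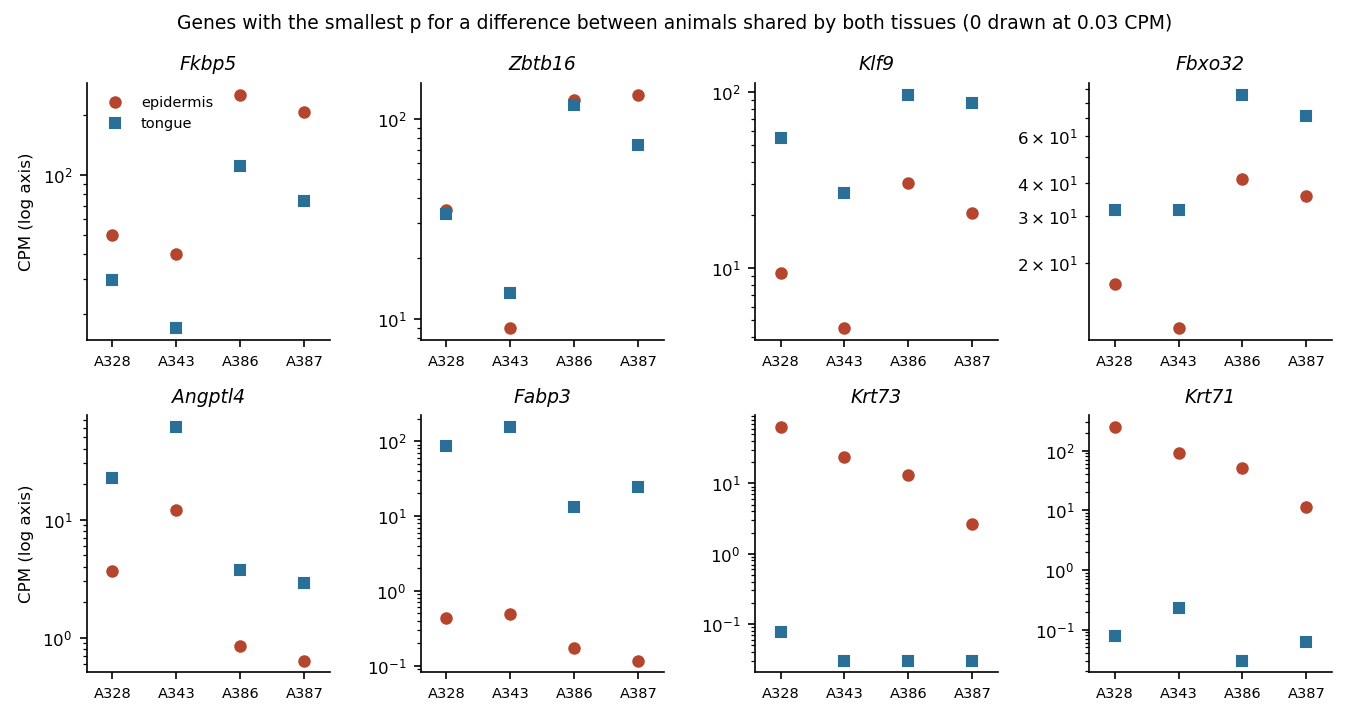
CPM (log axis, 0 drawn at 0.03) of 8 of the 12 genes with the smallest p for a difference between animals, for the epidermis (red circles) and tongue (blue squares) of each knockout animal. Fkbp5, Zbtb16, Klf9 and Fbxo32 lie higher in A386 and A387 in both tissues and Angptl4 and Fabp3 lower, while Krt73 and Krt71 differ between animals only in epidermis.

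The tissue difference in the knockouts was close to that in wild type. Across 16091 genes tested in both, the 2 sets of log2 differences, which share no library, had a Pearson r of 0.972 and a Spearman rho of 0.959. This is a correlation across genes, which are not independent replicates. Of 5008 genes called beyond 2-fold in the knockouts, 4998 (99.8%) had the same sign in wild type, and the median absolute gap between the 2 differences was 0.217. Krt10 differed by 8.12 in knockout and 7.93 in wild type, Flg by 8.7 and 8.51, Krt13 by -7.36 and -7.44, and Myh8 by -8.36 and -9.14.

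The difference of the tissue difference between genotypes was tested in the 6 animals that gave both tissues, 4 knockout and 2 wild type. No gene of 18330 (0%) was called by edgeR's quasi-likelihood test, and 230 had an unadjusted p under 0.05. DESeq2 and limma-voom also called 0, with 114 and 210 genes at an unadjusted p under 0.05. The 6 smallest p were those of Egr2 (1.54 ± 0.355 SE), Clmp (2.06 ± 0.485), Tmem132c (1.93 ± 0.479), Chst2 (-1.19 ± 0.298), Mamdc2 (4.77 ± 1.2) and Kbtbd13 (-2.42 ± 0.624), each as knockout minus wild type and each with an adjusted p of 1. For Tmprss11a this difference was 1.23 ± 0.33 SE and for Tmprss11f -0.09 ± 0.34. A miss in this small design does not show that the genotypes act alike.

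**Figure D5:**
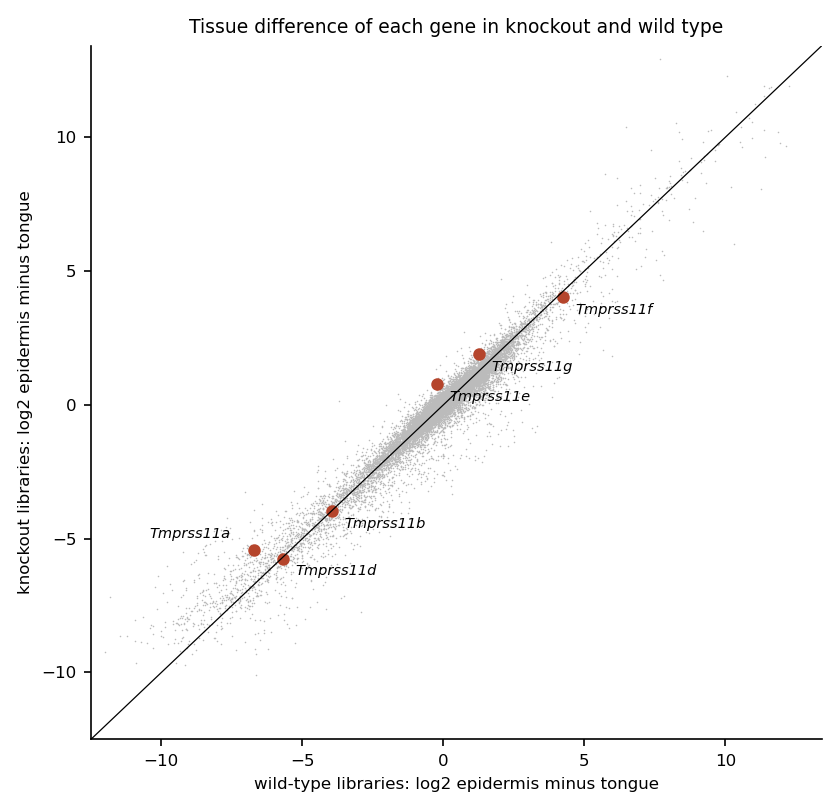
Log2 tissue difference (epidermis minus tongue) of each of 16091 genes in wild-type libraries (horizontal) and knockout libraries (vertical), with the line of equality and the 6 targeted proteases in red. Points follow the line, with Tmprss11f near the upper right and Tmprss11a, Tmprss11b and Tmprss11d at the lower left.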

How the data were processed

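RNA from epidermis and tongue was sequenced as paired reads of 37 bases from kits that do not mark strand, per the labels' protocols. STAR 2.5.2a and the builds GRCm38.p3 and mm10 are named in the submitters' processing notes, and which program counted genes is not given in the sources used here. All tests started from the deposited table of raw counts per gene. A second deposited table holds TMM-scaled values (signal), which the authors derived from those counts; each count divided by its value departed from a library constant by at most 0.00496%, and it served for gene symbols. Coordinates and exon lengths came from GENCODE M21 (GRCm38), matched by identifier for 23337 of 23422 entries; the table has 2 transgene entries.

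Of the 8 libraries, edgeR 4.0.16 (R 4.3.3) kept genes by filterByExpr (minimum count 10), scaled by TMM and fitted animal and tissue with the robust quasi-likelihood test. P-values were adjusted by Benjamini-Hochberg over every tested gene (threshold 0.05), and differences beyond 2-fold were tested against an interval of ± 1 on the log2 scale. The animal term was tested in the same model. The genotype comparison used 12 libraries of 6 animals with both tissues. CPM are TMM-scaled. The fits were tested on simulated data: of 4-fold changes, 92% were recovered for tissue, 83% for the animal term and 71% for the genotype term, and of 2-fold changes 55%, 21% and 10%. Changes were planted in a small share of the genes and the rest had none. Of the rest, 4 genes were called for tissue, 14 for the animal term and 8 for the genotype term. The real data differ from that setting, since 61.9% of genes were called between the tissues. In the simulations of the animal and genotype terms too, genes without a planted change had no tissue difference. The shares recovered there therefore do not measure what those tests could find in these data. The pairing comes from the animal numbers; deviations of the 2 libraries of an animal from their tissue means correlated by 0.0542, 0.216, -0.156 and 0.145 across 15387 genes (A328, A343, A386, A387), and those of libraries of different animals by -0.159 to 0.235, the highest between the epidermis of A386 and the tongue of A387. Residual degrees of freedom were 3.

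A few genes are not reported here. Genes were named by a written rule: the targeted genes, the 12 largest differences in each direction at a mean of 10 CPM or more, up to 4 called members in each direction and 2 not called from each of 54 lists by mean CPM, the 12 smallest p of the animal term at 1 CPM or more and the 6 smallest of the genotype term. The comparison, the members and the lists were chosen with earlier results of these data known. Alternatives were no replicate block, RLE scaling, library totals, no filter, no mitochondrially encoded genes, DESeq2 1.42.0, limma-voom 3.58.1, each pair left out, A386 and A387 alone, A328 and A343 alone, and all 15 libraries. Nothing in the labels says that the animals were independent litters. With 3 counts per library as the floor, 0 reads allow up to 0.183 CPM in epidermis and 0.228 in tongue, covering counting error only.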

Additional observations from a re-analysis of the deposited data

Results flagged for a closer look

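Of 285 groups of 4 libraries checked for the named genes, 15 (5.26%) had a highest or lowest library whose gap to the nearest of the others exceeded Dixon's 95% limit as a share of the group's range, and chance flags about 1 in 20 such groups. The epidermis of A343 gave 7 of them. It was the highest for the envelope genes Lce1a1 (604.7 CPM against 249 to 304 in the other 3) and Lce1c (397.9 against 202 to 219.5), the alarmin Il33 (11.6 against 1.62 to 1.97), the oral keratin Krt76 (5.57 against 0.522 to 0.757), the oral patterning factor Pax9 (1.15 against 0 to 0.113), the muscle enolase Eno3 (20.5 against 5.97 to 7.08) and the gene model Gm10800 (359.3 against 2.26 to 12.2). The skeletal myosin list also summed highest in that library, to 193 CPM. The epidermis of A328 was the lowest for the inhibitor Spink5 (1071 CPM against 1951 to 2057) and the factor Grhl1 (247.5 against 358 to 368), and the highest for trichohyalin, Tchh (270.4 against 29.2 to 67.7). The epidermis of A387 was the lowest for the pigment cell factor Mitf (6.55 against 12.9 to 13.4).

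In tongue, A328 was the highest for filaggrin, Flg (21 CPM against 7.72 to 8.56), and for the endothelial Pecam1 (161.5 against 112 to 120.1). The tongue of A386 was the highest for the hemidesmosome collagen Col17a1 (187.3 against 119 to 122) and for Sox2 (8.27 against 6.5 to 6.7). Apart from Mitf, which was not called, the genes of these 15 groups kept their tissue call and its direction with each pair left out in turn.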

How the results depend on the processing

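The number of genes called between the tissues stayed within 1.5 times the main 10153 in every alternative run, from 8417 to 12169. The highest was that without the filter on low counts, which tested 23356 genes. Without the replicate block it was 10455. The share of calls higher in epidermis was 50.7%, and 60.4% with library totals. For the animal term the 4 calls became 8 with library totals, 73 without the filter on low counts, 132 with DESeq2, 9 with limma-voom, and between 1 and 10 with a pair left out (1 without A386, 10 without A328). The no-filter calls include spermatid genes read in the epidermis of A328. The genotype term gave 0 calls in all 14 settings. Of the 157 tissue differences of named genes, Krt6b turned to -0.81 in A386 and A387 alone, against 0.25 in all animals. Without the block the tissue calls of Angptl4 (-2.43), Fkbp5 (1.25) and Fbxo32 (-1.07) were lost and that of Tgm3 (-0.64) was gained; the block changed no other named call. The cause was not tested. With 4 pairs, 55% of simulated 2-fold tissue changes were recovered, in a setting where most genes had no tissue difference. In the data 61.9% of genes were called, so that 55% does not measure what the tissue test could find. Small differences may still be missed with 4 pairs.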

Other observations

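Of 14 ion transport genes 8 (57.1%) were higher in epidermis and 4 (28.6%) in tongue, beside 31.4% and 30.5% of all genes tested. Without A343, 4 were higher in epidermis. The water and glycerol channel Aqp3 had 140.0 ± 24.8 CPM in epidermis and 62.1 ± 5.47 in tongue (log2 1.16 ± 0.16 SE, adjusted p = 1.7e-04), and the warmth channel Trpv3 61.8 ± 11.9 and 9.19 ± 3.34 (log2 2.79 ± 0.26 SE, adjusted p = 1.2e-05). Of 18 circadian clock genes 7 were higher in each tissue (median -0.02), beside 31.4% and 30.5% of all genes tested. Arntl was higher in epidermis (log2 0.99 ± 0.16 SE, adjusted p = 4.2e-04) and its repressor Nr1d2 in tongue (log2 -1.42 ± 0.17 SE, adjusted p = 6.3e-05); the labels give no hour of collection. Of 12 interferon-stimulated genes 5 were higher in epidermis, led by Irf7 with 9.95, 35, 4.56 and 4.81 CPM against 0.856, 0.751, 1.11 and 0.608 in tongue (log2 3.6 ± 0.49 SE, adjusted p = 1.5e-04), and 6 in tongue, such as Ifit2 (log2 -3.56 ± 0.35 SE, adjusted p = 1.4e-05).

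Of 9 sebaceous gland genes 4 (44.4%) were higher in epidermis and 4 (44.4%) in tongue, beside 31.4% and 30.5% of all genes tested. Their differences ran from -6.26 to 10.2 (median -0.12), and the 2 genes named next are from the epidermal side. The sebaceous wax ester synthase Awat1 had 6.54, 16.1, 12 and 6.61 CPM in epidermis and no read in tongue, at least 45.2-fold higher, and the sebaceous elongase Elovl3 was at least 14.7-fold higher. The haemoglobin gene Hbb-bs had 16.7 ± 10.2 CPM in epidermis and 349 ± 157 in tongue (log2 -4.48 ± 0.56 SE, adjusted p = 7.9e-05). The table also holds 2 transgene entries, which the labels do not mention. The one named beta-lac had 7.68 to 14 CPM in the 4 epidermis libraries and 17 to 36 in the 4 tongues, and the one named LacZ 0.486 to 1.18 and 1.17 to 3.58 CPM. Gm10800, an unnamed gene model, had 11.8, 359, 12.2 and 2.26 CPM in epidermis and 0.311, 0, 0.101 and 0 in tongue.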
